A study of Mus musculus with 6 samples.

Results

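The 93 genes described here are the nuclear genes whose symbols begin with the names of subunits of the oxidative phosphorylation complexes (Nduf, Sdh, Uqcr, Cox4 to Cox8, Atp5), together with the genes of the carrier cytochrome c (Cycs) and of cytochrome c1 (Cyc1). They were chosen by symbol from the 14338 genes of the authors' deposited comparison. Earlier results of these data were known at that choice, among them that Ndufa4 and Cox5a differed by genotype. All 93 were among the 16757 genes tested for a difference between genotypes. Of these, 79 encode structural subunits or cytochrome c, namely 36 of complex I, 4 of complex II, 9 of complex III, 13 of complex IV, 16 of complex V and Cycs itself. The other 14 are assembly factors and relatives that carry the same name stems. A further 17 symbols of the same pattern stood in the count table but not in the authors' comparison, and no library had more than 10 reads for any of them. Cox4i2, Cox6a2, Cox8b and Ndufa4l2, and likewise Cox7b2 and Cox8c, which in other tissues replace or accompany the common subunits, had 0 to 4 reads per library.

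Oxidative phosphorylation passes electrons from NADH (through complex I) and succinate (through complex II) to coenzyme Q, complex III, cytochrome c and complex IV, which reduces oxygen. Complexes I, III and IV pump protons across the inner mitochondrial membrane, and complex V, the ATP synthase, uses their return to make ATP. Most subunits are encoded in the nucleus and imported, and the rest are encoded by mitochondrial DNA. Colonocytes rely on this pathway to oxidise butyrate, the short-chain fatty acid that gut bacteria make from fibre.

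RNA-seq was performed on cells washed from colon tissue with EDTA and DTT, a procedure that lifts off the epithelium. There were 3 libraries labelled Lingo2-/- and 3 labelled wild type, all from mice of 2 months kept in naive conditions. Lingo2 encodes a transmembrane protein with leucine-rich repeats, and how its allele was made is not given in the sources used here. Whether each library stands for its own animal is not stated, so a p-value here compares genotypes with the spread from library to library, part of which may be technical. Gene reads numbered 7060769 to 13047682 in Lingo2-/- libraries and 25010618 to 28029583 in wild type libraries. Lingo2 had 1, 1 and 0 reads in Lingo2-/- libraries and 0, 7 and 0 reads in wild type libraries, which checks neither genotype label. Markers of epithelium summed to 4677 ± 455 CPM in Lingo2-/- and 4798 ± 463 CPM in wild type libraries (SD, n = 3 each). CPM here is counts scaled to library size by TMM, edgeR's trimmed mean of M values.

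The nuclear respiratory genes as a whole stood at about the same level in both genotypes, and single subunits differed. The edgeR quasi-likelihood test, with Benjamini-Hochberg adjustment over all genes tested and a threshold of 0.05, called 2 of the 93 genes (2.15%), against 2.57% of all genes tested. Cox5a rose (1.04% of all genes tested were called higher) and Ndufa4 fell (1.52% were called lower). Both encode small subunits of complex IV, cytochrome c oxidase. The share of members called was therefore near that of all genes. DESeq2's Wald test called the same genes and Cox8a, and limma called Ndufa4 and Cox5a only. At an unadjusted edgeR p under 0.05, 7 members were higher and 7 lower, which is 15.1% of members against 18.6% of all genes tested (9.01% higher and 9.64% lower). The 3 Lingo2-/- values lay all above or all below the 3 wild type values for 20 members (21.5%), against 24.1% of all genes tested. They were above for 10 members, against 12.3% of all genes, and below for 10, against 11.8%.

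Differences were small in most members. The median log2 fold change, given throughout as Lingo2-/- over wild type, was −0.01 over the members and 0.00 over all genes tested, with a median standard error of 0.10 per member. A difference beyond 1.25-fold either way was fitted for 9 of 93 members (9.68%) and for 29.2% of all genes tested. Among genes with a mean of 10 CPM or more, which are measured more precisely, these shares were 7.41% of 81 members and 15.1% of 8185 genes. Changes within 1.1-fold were fitted for 50 of the 93 members and for 6474 of all 16757 genes. At 10 CPM or more these counts were 47 of 81 members and 4143 of 8185 genes.

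**Figure D1:**
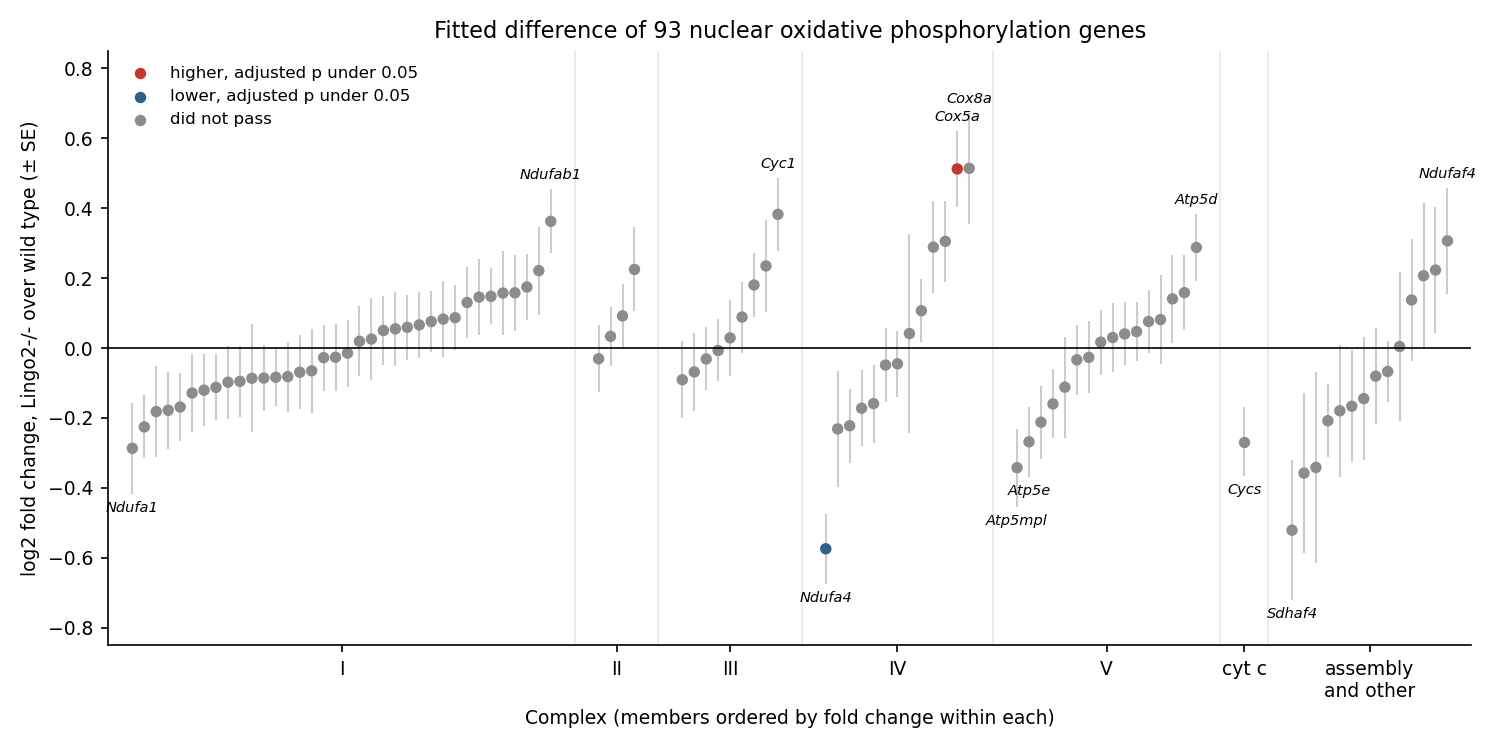
Fitted log2 fold change (Lingo2-/- over wild type, edgeR) of each of the 93 genes on the vertical axis, with bars of 1 standard error, grouped by complex and ordered within it. Ndufa4 (−0.57) and Cox5a (0.51) are the coloured points, which passed the adjusted threshold of 0.05. Most other points lie within 0.3 of 0.

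The promoters of Ndufa4, Cox5a and Cox8a, the complex IV subunits with the largest fitted differences, are shown because the results turn on these 3 genes. They run from 250 bases before to 50 bases after the RefSeq start in build GRCm38.p6. The first is on chromosome 6 (chr6:11907401-11907700, minus strand), the next on chromosome 9 (chr9:57520982-57521281, plus strand) and the last on chromosome 19 (chr19:7217567-7217866, minus strand).
Ndufa4: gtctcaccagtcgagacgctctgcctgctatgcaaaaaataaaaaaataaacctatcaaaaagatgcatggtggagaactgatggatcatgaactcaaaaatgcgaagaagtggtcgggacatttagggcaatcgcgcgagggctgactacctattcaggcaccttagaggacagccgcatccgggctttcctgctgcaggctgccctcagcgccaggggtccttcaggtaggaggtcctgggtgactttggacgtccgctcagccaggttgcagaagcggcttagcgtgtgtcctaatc
Cox5a: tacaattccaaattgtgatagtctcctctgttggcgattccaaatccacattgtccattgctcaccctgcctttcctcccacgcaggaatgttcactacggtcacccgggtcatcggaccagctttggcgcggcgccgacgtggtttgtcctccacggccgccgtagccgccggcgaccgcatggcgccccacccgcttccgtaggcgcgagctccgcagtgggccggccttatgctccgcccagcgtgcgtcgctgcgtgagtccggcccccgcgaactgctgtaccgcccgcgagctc
Cox8a: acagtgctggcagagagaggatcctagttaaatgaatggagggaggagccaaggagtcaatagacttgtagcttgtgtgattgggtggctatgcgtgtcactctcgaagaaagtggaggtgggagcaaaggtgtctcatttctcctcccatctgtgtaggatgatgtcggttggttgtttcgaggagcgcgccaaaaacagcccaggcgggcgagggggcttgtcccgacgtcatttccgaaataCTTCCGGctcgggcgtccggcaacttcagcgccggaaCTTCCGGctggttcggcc
Capitals mark matches to the ETS-type core CCGGAAG, the motif bound by NRF-2 (GABP), here on the opposite strand as CTTCCGG. The matches in Cox8a begin 5 bases before the start and 32 bases after it.

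Promoters of 79 members were found in RefSeq and searched on both strands for 4 motifs linked to respiratory genes, each counted separately where matches overlapped. The NRF-1 motif (GCGC, then 2 bases of any kind, then GCGC) was in 22 of them (27.8%) and in 6.43% of 27025 promoters of the same length. The ETS motif was in 20 (25.3%, against 9.12%), the YY1 motif AAGATGGCG in 7 (8.86%, against 1.49%) and the oestrogen-related receptor motif TCAAGGTCA in 2 (2.53%, against 0.407%). None of the 4 was in the windows of Ndufa4 or Cox5a, the genes called in opposite directions, and Cox8a held the ETS motif alone. In complex IV, 1 of 11 promoters held the NRF-1 motif and 3 held the ETS motif. In complex I these counts were 9 and 4 of 32, and 5 promoters held the YY1 motif. A match describes letters in the window and is not a site.

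Levels per length gave an order of the subunits within each complex, which depends on the transcript whose length is used. The principal transcript of Atp5l, for instance, has 544 bases, while all its annotated exons together cover 6443. Dividing CPM by the length of the principal transcript in kilobases gives RPKM, and on this scale Cox4i1, a large structural subunit of complex IV, was the highest member, with 361 RPKM in Lingo2-/- and 374 RPKM in wild type libraries (means of 3). Uqcrh, the hinge protein of complex III, followed with 309 RPKM in Lingo2-/- and 329 RPKM in wild type. Cox6c of complex IV averaged 284 RPKM in Lingo2-/- and 293 RPKM in wild type. Atp5b, the catalytic beta subunit of ATP synthase, averaged 271 RPKM in Lingo2-/- and 246 RPKM in wild type. All 4 genes overlapped between genotypes in CPM.

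The highest subunits of complexes I and II were lower per length. Ndufb9, a membrane arm subunit, led complex I with 152 RPKM in Lingo2-/- and 161 RPKM in wild type, and Ndufa6 came next with 117 RPKM in Lingo2-/- and 119 RPKM in wild type. Sdhd, a membrane anchor, led complex II with 99.2 RPKM in Lingo2-/- and 93.1 RPKM in wild type. Uqcr10 of complex III stood at 236 RPKM in Lingo2-/- and 242 RPKM in wild type, and Atp5e, the epsilon subunit of the ATP synthase stalk, at 214 RPKM in Lingo2-/- and 258 RPKM in wild type. At the low end, Cox6b2, known as the testis form of a complex IV subunit, had 2.77 RPKM in Lingo2-/- and 2.66 RPKM in wild type. Cox7a1, the heart and muscle form of another, reached 32.2 RPKM in Lingo2-/- and 38.5 RPKM in wild type, so it was detected in the washed cells of both genotypes.

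**Figure D2:**
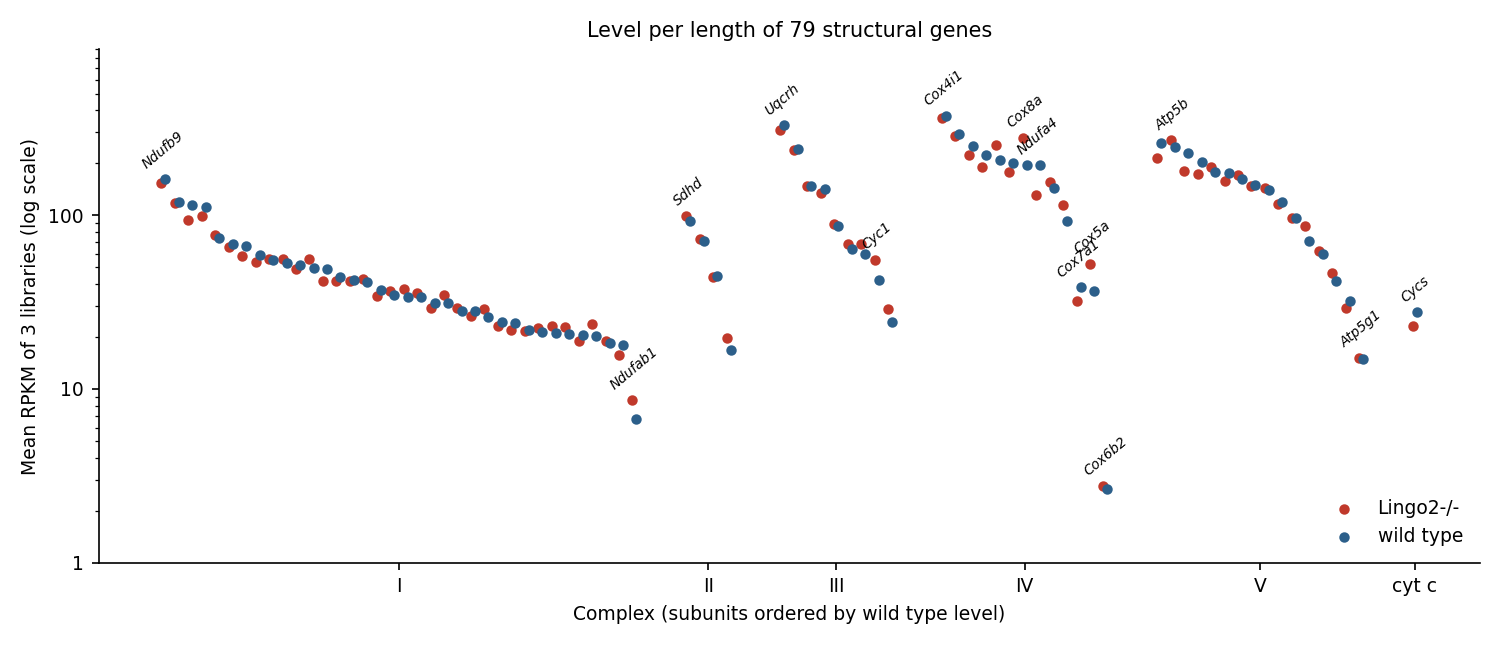
Mean RPKM of 3 libraries on a logarithmic axis for the 79 structural genes, with Lingo2-/- in red and wild type in blue, ordered by the wild type mean within each complex. Levels run from 2.77 RPKM (Lingo2-/-) and 2.66 RPKM (wild type) for Cox6b2 to 361 RPKM (Lingo2-/-) and 374 RPKM (wild type) for Cox4i1, and the points of both genotypes lie close together for most genes.

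In CPM summed over subunits, no complex stood apart by genotype. The 79 structural genes summed to 6463 ± 456 CPM in Lingo2-/- and 6394 ± 122 CPM in wild type libraries (SD, n = 3 each). They took 1.06% to 1.17% of the reads on nuclear genes in Lingo2-/- and 1.09% to 1.12% in wild type libraries. Complex I summed to 1425 ± 94.5 CPM in Lingo2-/- and 1430 ± 30.1 CPM in wild type, and complex V, the largest by sum, to 2222 ± 158 CPM in Lingo2-/- and 2184 ± 92.8 CPM in wild type. The values of the genotypes overlapped for each of the 5 complexes.

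Complex II summed to 394 ± 29.9 CPM in Lingo2-/- and 379 ± 17.3 CPM in wild type. Complex III summed to 909 ± 71.4 CPM in Lingo2-/- and 878 ± 12.01 CPM in wild type, and complex IV to 1440 ± 103 CPM in Lingo2-/- and 1437 ± 65.5 CPM in wild type. The spread was wider among the shallower Lingo2-/- libraries, where replicate 2 had the lowest sum for every complex and replicate 3 the highest. As shares of all reads on structural subunits, complex I took 22.1% ± 0.268 in Lingo2-/- and 22.4% ± 0.221 in wild type, and complex IV took 22.3% ± 0.0679 in Lingo2-/- and 22.5% ± 1.01 in wild type. Complex III took 14.08%, 13.94% and 14.17% in Lingo2-/- libraries, against 13.64%, 13.82% and 13.74% in wild type libraries, and these did not overlap. The shares of the other complexes overlapped, and no test of the shares was made. In RNA from a mixture of cells, a smaller number of cells of 1 type and less RNA per cell cannot be told apart.

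**Figure D3:**
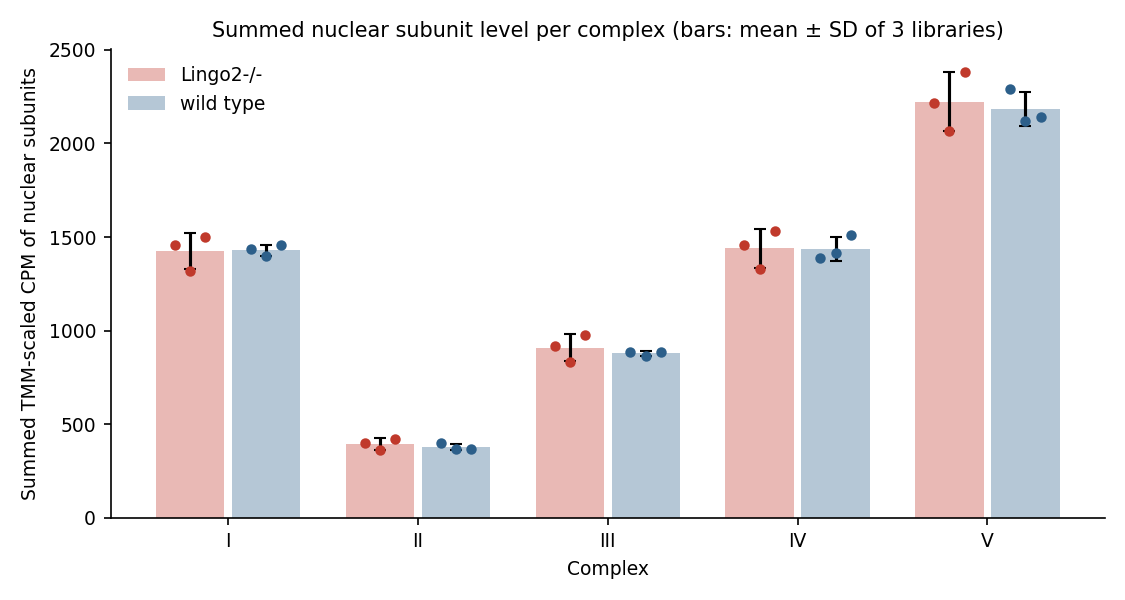
Summed CPM of the nuclear subunits of each complex, with bars for the mean of 3 libraries, whiskers for the SD and points for single libraries, Lingo2-/- left of wild type. The bars of a pair differ by less than the spread of their points, for instance 1440 CPM in Lingo2-/- against 1437 CPM in wild type for complex IV.

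Complex IV held both called genes, 15.4% of its 13 genes, against 2.57% of all genes tested. It also had the widest range of fitted differences, from −0.57 to 0.51, around a median of −0.05. Ndufa4 and Cox5a were known to differ when the genes were chosen, so this share and range describe the complex and add no test. Ndufa4 (ENSMUSG00000029632, chromosome 6, 11900292 to 11907497, minus strand, GRCm38) was first described with complex I and is now counted as a complex IV subunit. It had 65.3, 54.5 and 56.5 CPM in Lingo2-/- libraries, against 80.0, 93.8 and 89.2 CPM in wild type libraries. Every Lingo2-/- value lay below every wild type value, with a log2 fold change of −0.57 ± 0.10 (SE, edgeR adjusted p = 0.0115). The authors' deposited table gave −0.57 and an adjusted p of 0.000825. Without Lingo2-/- replicate 2 or replicate 3 the edgeR adjusted p was 0.0635 or 0.0604, with log2 fold changes of −0.53 and −0.55.

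Cox5a (ENSMUSG00000000088, chromosome 9, 57521274 to 57532426, plus strand) encodes a matrix-facing subunit of complex IV that lies beside Cox4. It had 30.5, 32.0 and 38.5 CPM in Lingo2-/- libraries, against 23.0, 22.7 and 25 CPM in wild type libraries. All Lingo2-/- values were the higher ones. The log2 fold change was 0.51 ± 0.11 (SE, edgeR adjusted p = 0.0289), and the authors' deposited table gave it an adjusted p of 0.0143. The call was lost without wild type replicate 1 (edgeR adjusted p = 0.0760) or replicate 2 (0.0907), and without Lingo2-/- replicate 2 (0.0809) or replicate 3 (0.127, log2 fold change 0.40).

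Opposite differences in the same complex shifted its make-up at the RNA level. Ndufa4 took 4.48%, 4.10% and 3.68% of the reads on nuclear complex IV subunits in Lingo2-/- libraries, against 5.77%, 6.64% and 5.90% in wild type libraries. Cox5a took 2.09%, 2.41% and 2.51% in Lingo2-/- libraries, against 1.66%, 1.61% and 1.65% in wild type libraries. The ratio of Ndufa4 to Cox5a in CPM was 2.14, 1.70 and 1.47 in Lingo2-/- libraries, against 3.48, 4.12 and 3.57 in wild type libraries. These genes were called from the same reads, so the shares and the ratio describe the difference and add no test.

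Cox8a (ENSMUSG00000035885, chromosome 19, 7215153 to 7217616, minus strand) encodes a small membrane subunit of complex IV. It had 114, 153 and 191 CPM in Lingo2-/- libraries, against 106, 109 and 105 CPM in wild type libraries. The wild type values were close together, and Lingo2-/- replicate 1 lay just above them. The log2 fold change was 0.51 ± 0.16 (SE, edgeR adjusted p = 0.125), so it did not pass, while the authors' deposited table called it (adjusted p 0.0374). Without Lingo2-/- replicate 1 the log2 fold change was 0.68 (edgeR adjusted p = 0.0118), and without Lingo2-/- replicate 3 it was 0.31 (0.291). The authors' deposited table called 3 members, Ndufa4 lower (2.8% of its genes were) and Cox5a and Cox8a higher (1.9% were), against 4.71% of its 14338 genes in either direction.

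The remaining genes of complex IV did not pass the test. At an unadjusted edgeR p under 0.05, 4 of all 13 genes of the complex were higher and 1 lower (38.5%, against 18.6% of all genes tested). Cox5a and Ndufa4, known beforehand to differ, are among these. Cox5b, which binds zinc, and Cox6a1, the non-muscle form of its subunit, are named here after their values were seen. Cox5b stood at 99.4 ± 16.5 CPM in Lingo2-/- and 80.3 ± 3.52 CPM in wild type libraries (SD, n = 3 each), a log2 fold change of 0.31 ± 0.11 (SE, edgeR adjusted p = 0.180). Cox6a1 had 145 ± 30.8 CPM in Lingo2-/- and 119 ± 4.60 CPM in wild type, a log2 fold change of 0.29 ± 0.13 (edgeR adjusted p = 0.267). Both had their highest value in Lingo2-/- replicate 3, as Cox5a and Cox8a did. Cox4i1 had 289, 245 and 274 CPM in Lingo2-/- libraries, against 268, 269 and 298 CPM in wild type libraries, and Cox6c, Cox6b2 and Cox7a1 also overlapped between genotypes.

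**Figure D4:**
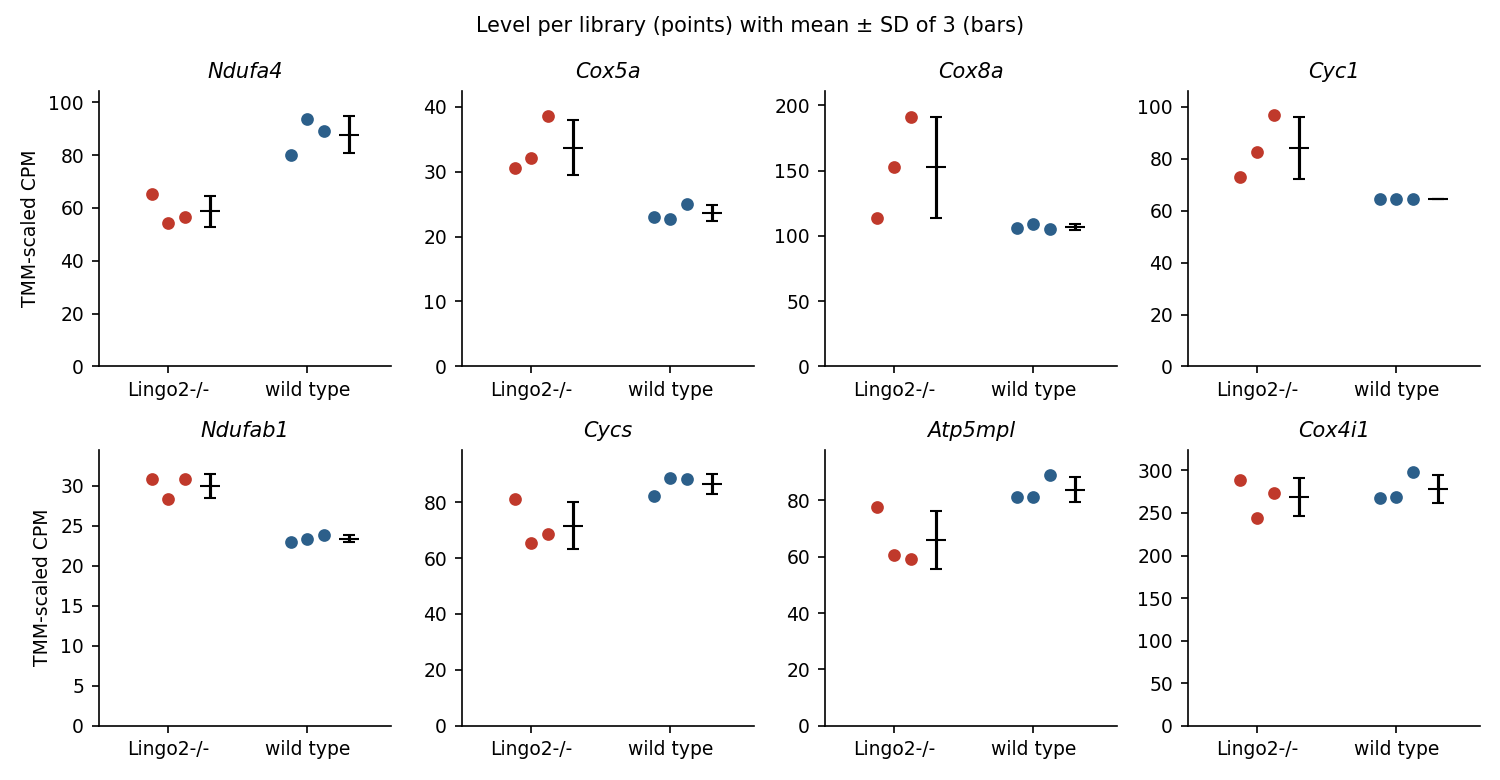
TMM-scaled CPM of 8 subunits in each library (points) with the mean and SD of 3 (bars), Lingo2-/- left of wild type and every axis starting at 0. Ndufa4, Cycs and Atp5mpl sit lower in Lingo2-/- libraries, Cox5a, Cox8a, Cyc1 and Ndufab1 sit higher, and Cox4i1 overlaps, with only Ndufa4 and Cox5a past the adjusted threshold of 0.05 in edgeR.

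A close relative and a neighbour of the called genes were looked at after their values were seen. AA467197, a gene of chromosome 2 that encodes a homologue of the Ndufa4 protein, had 106 ± 12.8 CPM in Lingo2-/- and 94.6 ± 19.3 CPM in wild type libraries, a log2 fold change of 0.16 ± 0.15 (SE) at an edgeR adjusted p of 0.616. Gm26631, a long non-coding RNA on the opposite strand that shares sequence with the Cox5a transcript, had 1.74 ± 0.121 CPM in Lingo2-/- and 1.66 ± 0.114 CPM in wild type. Whether reads were counted by strand is not given in the sources used here, and reads of Cox5a and Gm26631 may not be fully separated. Of the 50-base words in the Cox5a transcript, 32.0% also occur in other annotated genes. The share was 25.9% for Cox5b and 12.3% for Ndufab1. Ndufa4 and Cox8a share none, and neither does Cyc1. Over the members, 43 share no such word and 6 share more than 50%, Atp5g2 (100%) and Atp5l (84.8%) among them, so counts of these 6 are uncertain.

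In complex III and at cytochrome c, differences ran both ways without passing the test. Cyc1, the cytochrome c1 subunit that hands electrons to cytochrome c, had 73.1, 82.8 and 96.8 CPM in Lingo2-/- libraries, against 64.7, 64.4 and 64.4 CPM in wild type libraries. The wild type libraries were nearly equal and all lay below the Lingo2-/- ones. The log2 fold change was 0.38 ± 0.10 (SE, edgeR adjusted p = 0.0773). Cycs, the mobile carrier itself, had 81.1, 65.3 and 68.6 CPM in Lingo2-/- libraries, against 82.2, 88.7 and 88.5 CPM in wild type libraries. Its groups did not overlap, with Lingo2-/- replicate 1 just below wild type replicate 1, and the log2 fold change was −0.27 ± 0.10 (edgeR adjusted p = 0.174). Of the 50-base words in the Cycs transcript, 28.5% occur in other genes.

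Uqcrfs1, Uqcrh and Uqcr10 of complex III had fitted differences smaller than their standard errors. Uqcrfs1, the Rieske iron-sulphur protein, was named after its value was seen and had a log2 fold change of 0.09 ± 0.10. Uqcrh had one of −0.09 ± 0.11 and Uqcr10 one of −0.03 ± 0.09, and both overlapped between genotypes. Larger than their standard errors were the differences of Uqcrc1 (0.18 ± 0.09, edgeR adjusted p = 0.325) and Uqcrq (0.23 ± 0.13, 0.370). Both were named after their values were seen. The Lingo2-/- values of Uqcrc1 were all above the wild type ones, and those of Uqcrq overlapped them. None of the 9 genes of the complex passed in edgeR. At an unadjusted p under 0.05, 1 (Cyc1) was higher and 0 were lower (11.1%, against 18.6% of all genes tested). Of the 9 genes, 5 were fitted above 0 and 4 below, with a median log2 fold change of 0.03.

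None of the 36 complex I genes passed the edgeR test. At an unadjusted p under 0.05, 1 gene of the complex was higher and 2 were lower (8.33%, against 18.6% of all genes tested). Of its 7 core subunits, which carry the flavin, the iron-sulphur clusters and the electron path, 6 were fitted above 0, with a median log2 fold change of 0.15. Of the 29 accessory subunits, which surround that core, 11 were fitted above 0, with a median of −0.07. Among core subunits, Ndufs1, the large iron-sulphur subunit (named after its value was seen), had a log2 fold change of 0.15 ± 0.08 (SE, edgeR adjusted p = 0.351). Ndufv2 alone among the core subunits was fitted below 0 (−0.08 ± 0.08, edgeR adjusted p = 0.624). Over the whole complex the median was −0.02, smaller than the median standard error of 0.10.

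Ndufab1, the mitochondrial acyl carrier protein and an accessory subunit, came closest to the threshold in complex I. It had 30.9, 28.3 and 30.9 CPM in Lingo2-/- libraries, against 23.0, 23.3 and 23.9 CPM in wild type libraries. The groups stood clear of each other, with little spread in either, and the log2 fold change was 0.36 ± 0.09 (SE, edgeR adjusted p = 0.0578). Ndufa1, a membrane arm subunit encoded on the X chromosome, had the lowest fitted value in complex I. It had 41.3, 31.5 and 44.7 CPM in Lingo2-/- libraries, against 51.8, 42.0 and 49.96 CPM in wild type libraries. The groups overlapped, since Lingo2-/- replicate 3 exceeded wild type replicate 2, and the log2 fold change was −0.29 ± 0.13 (edgeR adjusted p = 0.264).

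Complex II, which is also the succinate dehydrogenase of the citric acid cycle, had fitted log2 fold changes from −0.03 to 0.22, and the genotypes overlapped for all 4 genes. None passed in edgeR or had an unadjusted p under 0.05. Sdha, the flavoprotein, had 127 ± 10.03 CPM in Lingo2-/- and 130 ± 7.93 CPM in wild type libraries (SD, n = 3 each), a log2 fold change of −0.03 ± 0.10 (SE). Sdhb, the iron-sulphur subunit, had 83.3 ± 4.08 CPM in Lingo2-/- and 81.5 ± 0.807 CPM in wild type, a log2 fold change of 0.03 ± 0.08. The anchors Sdhc and Sdhd had log2 fold changes of 0.22 ± 0.12 and 0.09 ± 0.09. Sdhc had its highest value, 71.6 CPM, in Lingo2-/- replicate 3 and its lowest, 48.9 CPM, in wild type replicate 3 (edgeR adjusted p = 0.343).

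Complex V had no gene called by edgeR among 16. At an unadjusted p under 0.05 it had 1 higher and 2 lower (18.8%, near the 18.6% of all genes tested). Of the 5 genes of its catalytic F1 head and central stalk, 4 were fitted above 0, as were the 3 genes of the c-ring, the rotor in the membrane. Of the 8 stator and membrane genes, 6 were fitted below 0. Atp5d, the delta subunit of the stalk, had 74.4, 80.6 and 88.4 CPM in Lingo2-/- libraries, against 71.3, 63.2 and 64.7 CPM in wild type libraries. Its Lingo2-/- values were all higher, with a log2 fold change of 0.29 ± 0.10 (SE, edgeR adjusted p = 0.133). Atp5e, which sits beside it in the stalk, had 97.1, 80.3 and 93.2 CPM in Lingo2-/- libraries, against 102, 107 and 117 CPM in wild type libraries. Its Lingo2-/- values were all lower, with a log2 fold change of −0.27 ± 0.10 (edgeR adjusted p = 0.177).

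Atp5mpl, a small membrane protein of the ATP synthase, had 77.8, 60.6 and 59.2 CPM in Lingo2-/- libraries, against 81.2, 81.1 and 89.1 CPM in wild type libraries. The groups did not overlap, although Lingo2-/- replicate 1 came close to the wild type libraries, and the log2 fold change was −0.34 ± 0.11 (SE, edgeR adjusted p = 0.128). Atp5b had 473, 498 and 585 CPM in Lingo2-/- libraries, against 523, 455 and 433 CPM in wild type libraries, and the groups overlapped. Its log2 fold change was 0.14 ± 0.13 (edgeR adjusted p = 0.582).

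Assembly factors, which build the complexes and do not stay in them, were low and so less precisely measured, with a median standard error of 0.18 over 12 genes. None passed in edgeR, and 0 were higher and 1 lower at an unadjusted p under 0.05 (8.33%, against 18.6% of all genes tested). Of the 12 genes, 8 were fitted below 0, and the median log2 fold change of the 12 was −0.16. Sdhaf4, which helps to mature the flavoprotein of complex II, had 4.27, 3.49 and 2.89 CPM in Lingo2-/- libraries, against 4.78, 5.78 and 4.98 CPM in wild type libraries. All Lingo2-/- values lay below the wild type ones, and the log2 fold change was −0.52 ± 0.20 (SE, edgeR adjusted p = 0.190). Ndufaf4, a complex I factor, had 15.7, 10.3 and 12.03 CPM in Lingo2-/- libraries, against 10.4 CPM in each wild type library. The groups overlapped, and its log2 fold change was 0.31 ± 0.15 (edgeR adjusted p = 0.305). Ndufaf2 and Ndufaf8 had log2 fold changes of −0.14 ± 0.18 and 0.00 ± 0.21. Cox7a2l, which links complexes III and IV into supercomplexes, had one of −0.07 ± 0.09.

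Coding length was set against the fitted differences of the structural genes after the values were known. Across the 79 genes, the log2 coding length and the log2 fold change had a Pearson correlation of 0.33 and a Spearman correlation of 0.42. Across 13635 protein-coding genes tested the values were 0.03 and 0.04. The 58 genes under 600 coding bases had a median log2 fold change of −0.04, with 23 above 0, and the 21 genes of 600 bases or more had a median of 0.08, with 17 above 0. Over all protein-coding genes tested, 700 of 1757 under 600 coding bases were above 0 (median −0.06), and 5676 of 11878 of 600 bases or more were (median −0.01). The share above 0 among short structural genes was thus near that of short genes in general. Among structural genes of 600 bases or more the share (17 of 21) was higher than among such genes in general (5676 of 11878). All points come from the same 6 libraries, genes are not independent replicates, and no test was made. The genes at the extremes, Ndufa4 with 246 coding bases and Cox8a with 207, lie at the short end in opposite directions.

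**Figure D5:**
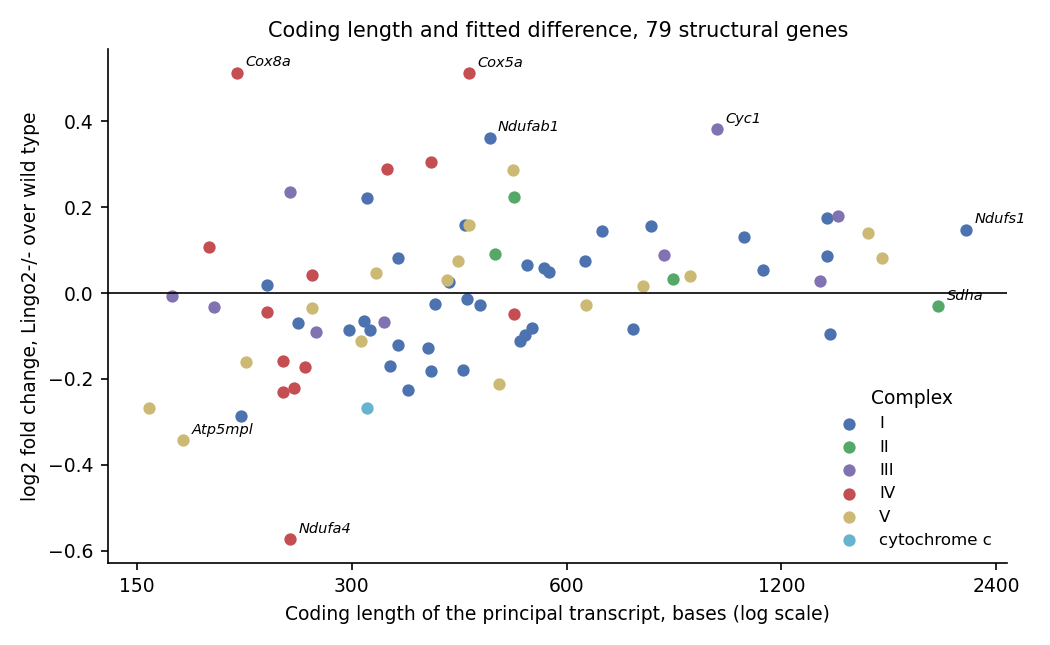
Fitted log2 fold change (Lingo2-/- over wild type) of the 79 structural genes against the coding length of the principal transcript in bases on a logarithmic axis, coloured by complex. Short genes spread from −0.57 to 0.51, and most of the 21 genes of 600 bases or more (17) lie above 0.

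The partner subunits encoded by mitochondrial DNA were measured unevenly. Of the 13 genes, mt-Nd3, mt-Nd4l and mt-Atp8 were listed at 0 reads in every library, and mt-Co2, mt-Co3 and mt-Atp6 had at most 37 reads in any library. Alignments that were not unique are kept apart from gene counts in the deposited table, and their part in these low counts was not tested. The edgeR test covered 9, called none, and fitted all 9 below 0, with a median log2 fold change of −0.27. These 9 include mt-Co2 and mt-Co3, whose counts were low. At an unadjusted edgeR p under 0.05, mt-Nd1 and mt-Co3 were lower (22.2%, against 9.64% of all genes tested). For mt-Co3 this rests on 17, 3 and 5 reads in Lingo2-/- libraries and 37, 37 and 30 in wild type libraries. DESeq2's Wald test called mt-Nd1 and mt-Co1 lower. The summed CPM of the mitochondrial DNA genes over that of the nuclear structural genes was 17.5, 18.4 and 15.9 in Lingo2-/- libraries, against 24.3, 24.4 and 20.6 in wild type libraries. The Lingo2-/- ratios were all lower, and mt-Co1 alone made up 83.5% ± 0.712 of that sum in Lingo2-/- and 84.6% ± 1.25 in wild type libraries. Reads on all genes of the mitochondrial genome took 35.7% to 39.8% of gene reads in Lingo2-/- and 45.3% to 48.4% in wild type libraries, and reads outside annotated genes took 23.6% to 27.6% of alignments in Lingo2-/- against 18.5% to 22.1% in wild type. The part of these differences in depth and composition in the ratio was not tested.

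Genes around the respiratory chain were grouped by function. None of 17 citric acid cycle genes, 13 genes of coenzyme Q synthesis, 18 carriers, import factors and chaperones, 19 glycolysis genes, 10 antioxidant genes or 40 further assembly factors passed the edgeR test, with medians from −0.13 for glycolysis to 0.15 for coenzyme Q synthesis. DESeq2 and limma called none of them. An unadjusted edgeR p under 0.05 was found for 18.6% of all genes tested. At that p, the citric acid cycle had 3 genes higher and 0 lower (17.6%), coenzyme Q synthesis 2 and 0 (15.4%), and glycolysis 1 and 1 (10.5%). Carriers and import had 1 and 4 (27.8%), antioxidants 0 and 0, and the assembly factors 1 and 4 (12.5%). The closest to the threshold were Tomm7 of the outer membrane import pore (log2 fold change −0.34 ± 0.09, SE, edgeR adjusted p = 0.0712), Pdss1, the first enzyme of the coenzyme Q side chain (0.38 ± 0.10, 0.0781), and Uqcc2, a complex III assembly factor (−0.42 ± 0.12, 0.0811). Of 77 mitochondrial ribosomal protein genes none passed, with 5 higher and 3 lower at an unadjusted p under 0.05 (10.4%) and a median of 0.03. Of 76 cytosolic ribosomal protein genes none passed, with 0 higher and 18 lower at that unadjusted p. These 18 are 23.7% of that list, against 9.64% of all genes tested that were lower. The median of the cytosolic ribosomal list was −0.16 (DESeq2 called Rps15a lower).

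Among 20 regulators of mitochondrial biogenesis, Pprc1 rose and no other passed (median of the list −0.02). Pprc1 encodes a coactivator related to PGC-1 that acts with NRF-1 on respiratory genes. It had 31.4, 21.2 and 20.7 CPM in Lingo2-/- libraries, against 13.7, 15.7 and 15.97 CPM in wild type libraries. The groups did not overlap, and Lingo2-/- replicate 1 was well above the rest. The log2 fold change was 0.71 ± 0.16 (SE, edgeR adjusted p = 0.0395). Without Lingo2-/- replicate 1 it was 0.46 (edgeR adjusted p = 0.0889), and the call was lost under 8 of 16 other settings, including those that left out wild type replicate 1 (0.118), 2 (0.0888) or 3 (0.0531) or Lingo2-/- replicate 2 (0.0604).

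Some markers of other cells differed by genotype beside these results. Of all genes tested, edgeR called 1.04% higher and 1.52% lower. All 10 T cell and intraepithelial lymphocyte markers fell, and their summed level was 186 to 213 CPM in Lingo2-/- and 437 to 524 CPM in wild type libraries. Goblet cell markers summed to 16337 to 22873 CPM in Lingo2-/- and 13555 to 16375 CPM in wild type libraries, which overlap. Of these 10 markers 3 were called higher, 8 were fitted above 0 and 2 below. Of 10 macrophage and dendritic cell markers 3 were called lower, 8 were fitted below 0 and 2 above. Their summed levels overlapped, at 63.4 to 124 CPM in Lingo2-/- and 92.2 to 102 CPM in wild type libraries. Of 8 fibroblast markers 1 was called lower and all 8 were fitted below 0. Their summed levels overlapped, at 265 to 587 CPM in Lingo2-/- and 395 to 1119 CPM in wild type libraries. Of 4 endothelial markers tested, Vwf was called higher and 3 were fitted below 0, with a median log2 fold change of −0.47. The endothelial list summed to 14.5 to 15.2 CPM in Lingo2-/- and 13.0 to 16.3 CPM in wild type libraries. Erythrocyte markers summed to 218 to 368 CPM in Lingo2-/- and 373 to 625 CPM in wild type libraries, and edgeR called none of 5, although all 5 were lower at an unadjusted p under 0.05 and in DESeq2's calls. None of 11 epithelial, 10 absorptive colonocyte, 10 proliferation, 10 B and plasma cell or 5 smooth muscle markers was called by edgeR. Of the absorptive colonocyte markers 9 of 10 were fitted below 0, with a median log2 fold change of −0.28 and summed levels of 9088 to 11635 CPM in Lingo2-/- and 11358 to 14419 CPM in wild type libraries, which overlap. DESeq2 called Ceacam1 of the colonocyte list lower and Igha of the plasma cell list higher, and 3 genes of these lists were higher and 4 lower at an unadjusted edgeR p under 0.05. The part of these cells in the values of Ndufa4, Cox5a and the other members was not tested.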

How the data were processed

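Total RNA of 6 libraries from washed colon cells was sequenced after removal of ribosomal RNA, per the labels' protocols. The deposited table of counts holds whole reads per gene, not normalized. Per the submitters' processing notes the authors used Trimmomatic 0.39, STAR, HTSeq and DESeq2 with GRCm38, and the annotation release is not given in the sources used here. The authors' deposited comparison holds a normalized signal, a log2 fold change, a test score and a p-value per gene; 14338 genes are listed, by a filter that is not stated. Its signal equals count times 1 factor per library.

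Counts of 46078 genes, without the 5 summary lines, were filtered (filterByExpr), TMM-scaled and tested with edgeR 4.0.16 (glmQLFit, robust) in R 4.3.3 over 16757 genes, with Benjamini-Hochberg adjustment at 0.05. DESeq2 1.42.0 and limma 3.58.1 were alternatives, and the test was checked on simulated data. Standard errors were the fold change over the root of F. Lengths came from GENCODE M21 principal transcripts, promoters from RefSeq.

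Members and lists were chosen with earlier results of these data known. Genes named are those called, the extremes and the 2 highest per length in each complex and among assembly factors, carriers and tissue isoforms, and for each other list its genes called or the one nearest to it. Depth was lower in Lingo2-/- libraries, so their low genes are less precise.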

Additional observations from a re-analysis of the deposited data

How the results depend on the processing

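Calls depended on the filter and on single libraries more than on the scaling. The members called numbered 2 in edgeR, and also 2 under other size factors, a stricter filter, dispersions that were not robust and limma. They numbered 2 as well after thinning to the shallowest library and without genes of the mitochondrial genome. A count over structural genes alone used the same fit and had to give 2, because both called genes are structural. Without a filter they numbered 5 (3 higher, 2 lower), with 1493 of all genes called, and DESeq2's Wald test called 3 (2 higher), with 672 of all genes. Leaving out 1 library gave 0 to 5 members (0 to 3 higher, 0 to 2 lower) and 174 to 674 of all genes. Members called were 0 without Lingo2-/- replicate 2 or 3, 5 without Lingo2-/- replicate 1, 1 without wild type replicate 1 or 2 and 2 without wild type replicate 3. Labels number the replicates alike, but same-numbered libraries did not deviate together (r = −0.126, 0.128 and −0.0220). With a replicate block 2 members were called, Cox5a (edgeR adjusted p = 0.0395) and Ndufa4 (0.0382), and 360 of all genes. Over 16 alternatives the log2 fold change of Ndufa4 ranged from −0.67 to −0.52 and that of Cox5a from 0.40 to 0.58. The median log2 fold change of complex IV was 0.00012 after thinning and −0.087 to 0.0057 without 1 library, against −0.045 with all libraries. Sums and medians of the 5 complexes otherwise moved by less than the spread between libraries, some across 0. The cause of these shifts was not tested.

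Reversals of sign were seen only in members that never passed. Ndufaf8 had log2 fold changes of −0.015 with upper quartile factors, −0.018 without a filter, −0.0018 with the block, −0.018 in limma and −0.030 after thinning. Ndufa6 was at 0.00038 in limma, and thinning gave 0.00012 for Cox6c, 0.013 for Sdha and −0.073 for Sdhb. Without 1 library, ranges were −0.11 to 0.0057 for Cox4i1, −0.11 to 0.19 for Cox6b2, −0.087 to 0.0010 for Cox6c, −0.11 to 0.023 for Ndufa6, −0.21 to 0.23 for Ndufaf8, −0.092 to 0.018 for Sdha, −0.0021 to 0.063 for Sdhb, −0.100 to 0.00098 for Uqcr10 and −0.17 to 0.0052 for Uqcrh. Depth limits the precision of genes of a few CPM, such as the assembly factors. Cox4i1 and Uqcrh, also listed here, were the members with the highest RPKM. The cause of the reversals was not tested.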
